A study of Mus musculus with 6 samples.

Results

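The kinetochore, centromere and spindle checkpoint genes are a list of 40 mouse genes, taken by gene symbol from a count table of 35976 symbols. All 40 symbols were in the table, and all 40 passed the filter on low counts that left 10636 genes. The libraries were 3′ mRNA sequencing of RAW264.7, a mouse macrophage-like tumour line that divides in culture. One group of 3 libraries came from cells with no treatment (control), the other group of 3 from cells given itaconate for 24 h. Itaconate is a small acid with a pair of carboxyl groups, formed in activated macrophages from cis-aconitate of the TCA cycle. The labels name neither its dose nor its form, no vehicle for the control, and no separate cultures behind the libraries of a group, so the p-values reflect only how far these libraries spread, and that spread may be technical.

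The kinetochore is the protein structure that ties each chromosome to the spindle. It is built on centromeric chromatin, where CENP-A replaces histone H3, through an inner layer that sits on this chromatin and an outer layer that binds microtubules. Kinetochores without proper attachment feed the spindle checkpoint, which holds the activator CDC20 and so keeps the anaphase-promoting complex (APC/C) inactive until all chromosomes are attached. In dividing cells many of these genes are transcribed mainly in G2 and mitosis.

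Library totals ran from 5202626 to 6098934 counts. On these totals 3 counts in a library, taken here as the floor, correspond to 0.492 to 0.577 CPM (counts scaled to a common library size). The CPM of genes below use totals adjusted by a scaling factor, so 3 counts differ slightly there. Log2 CPM correlated across genes at 0.963 to 0.970 within groups and at 0.930 to 0.934 between them, genes not being independent replicates. Of 12 macrophage markers all 12 were tested. Here 7 were called lower (58.3%, against 11.2% of all genes), 1 higher (against 10.7% of all genes) and 4 neither. The median log2 fold change of the markers was -0.29. The mannose receptor gene Mrc1 had -1.70 ± 0.24 (SE), the CSF1 receptor gene Csf1r -1.01 ± 0.07, Cd14 -0.96 ± 0.08 and Cd68, the marker called higher, 0.30 ± 0.07. Their summed level was 11305 to 12717 CPM in control and 9449 to 9760 CPM in itaconate libraries, and their part in the results below was not tested. Of 23 markers of fibroblasts, lymphocytes, epithelium, neutrophils and mast cells, 13 had 0 counts in all libraries and none exceeded 11 counts in any, with sums of 3.68 to 4.48 CPM in control and 2.80 to 3.20 CPM in itaconate libraries.

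In the itaconate group 35 of the 40 genes (87.5%) were lower, against 11.2% of all genes tested (edgeR quasi-likelihood test, Benjamini-Hochberg adjusted p under 0.05). No member was called higher, against 10.7% of all genes; the count was also 0 at an unadjusted p under 0.05 and 0 with DESeq2. The median log2 fold change of the members was -1.77, against -0.01 over all genes. The call came with a fall of at least 1 on the log2 scale for 31 members (3.86% of all genes) and of at least 2 for 13 (1.5% of all genes). For 36 members each itaconate library lay below each control library, as for 17.9% of all genes. Summed over the 40 genes, the level was 1448, 1348 and 1430 CPM in the control libraries and 538, 559 and 573 CPM in the itaconate libraries.

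**Figure D1:**
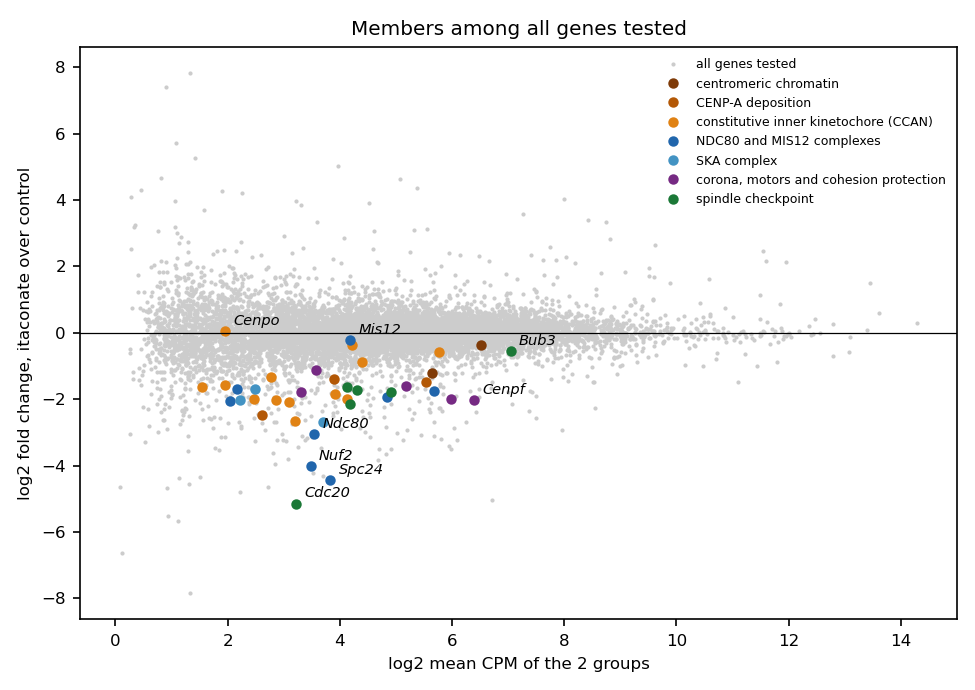
Log2 fold change of itaconate over control against the log2 mean CPM of the groups, with each gene tested in grey and the members coloured by role. The members sit below the zero line apart from Cenpo at 0.04, down to Cdc20 at -5.14.

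The fall was not even across the list. Cdc20, Spc24 and Nuf2 ranked 5, 12 and 17 among the log2 fold changes of all 10636 genes, counted from the lowest, and 33 members were among the lowest 500. At the other end Cenpb, Bub3, Cenpw and Cenpl were called but changed by under 1 on the log2 scale, and 5 genes were not called: Cenpu, Cenpq, Cenpc1, Mis12 and Cenpo. A set of genes that mark the dividing cell moved with the members. All 12 were called lower, against 11.2% of all genes, with a median of -2.36, against -0.01 over all genes. Their summed levels were 1054 to 1227 CPM in control and 241 to 279 CPM in itaconate libraries. Among them the proliferation antigen gene Mki67 fell by 2.67 ± 0.17 on the log2 scale (SE) and the replication clamp gene Pcna by 0.99 ± 0.18. The DNA replication genes Mcm2, Mcm3, Mcm5, Mcm6 and Mcm7 had log2 fold changes from -2.40 (Mcm5) to -1.22 (Mcm2). The part of these 12 genes in the result was not tested. In bulk RNA a smaller share of dividing cells, or of cells in G2 and mitosis, cannot be told apart from less transcript per cell.

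**Figure D2:**
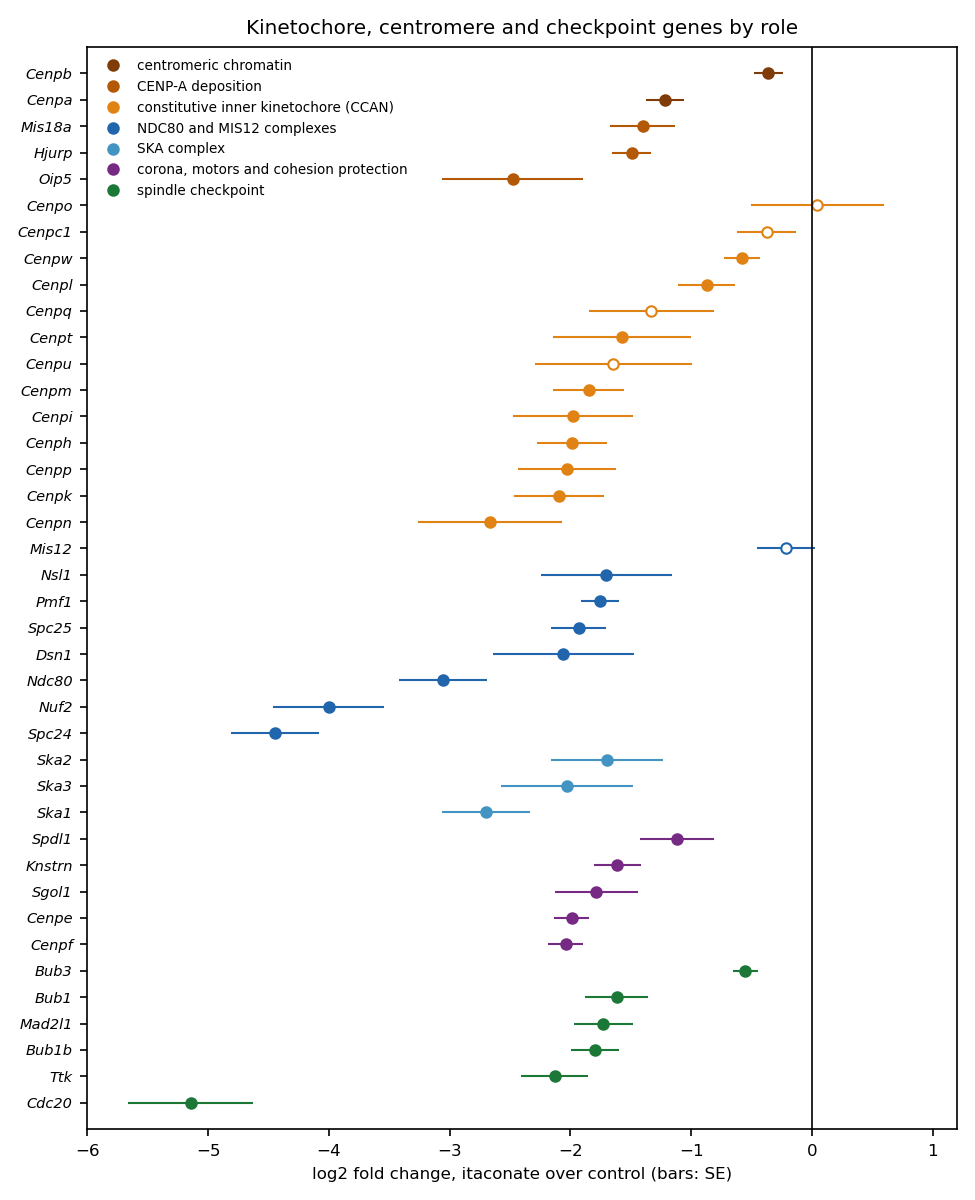
Log2 fold change of itaconate over control (x axis) for each member (y axis), with SE bars; filled points passed an adjusted p under 0.05 and open points did not. The falls of the filled points run from -0.36 for Cenpb to -5.14 for Cdc20, and the 5 open points are Cenpo, Cenpc1, Cenpq, Cenpu and Mis12.

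Since the members moved together, their promoters were searched for words known from cell-cycle genes. The cell-cycle homology region (CHR) is bound by the MuvB core of the DREAM complex, which represses such genes in resting cells, the CCAAT box by NF-Y, and E2F sites by E2F factors. RefSeq windows of 300 bases (GRCm38.p6, 250 before to 50 after the annotated start, the most upstream start of each gene) were at hand for 37 of the 40 genes, not for Spc24, Nsl1 and Ska1. The words were TTTGAA or TTCGAA for the CHR, CCAAT, and TTTCCCGC, TTTCGCGC, TTTGCCGC or TTTGGCGC for E2F, on both strands. A CHR word was present in 20 of 37 member windows (54.1%), against 19.5% of 27018 windows of all genes and 13.8% of the windows of tested genes. CCAAT was present in 26 (70.3%, against 38.0% and 39.1%), both together in 17 (45.9%, against 7.73% and 5.88%), and an E2F word in 5 (13.5%, against 2.33% and 4.48%). Of 21 CHR matches, 16 began within 50 bases of the start, a share that was not counted over the windows of all genes. A single pair of matches overlapped, a CCAAT and a CHR word in Cenpw. A match is a run of letters, not a binding site.

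The windows below, 5′ to 3′ with all matches in capitals, show the range: Cdc20, Ndc80, Bub1b and Cenpa hold a CHR word near the start, Nuf2 fell strongly with none of the words, and Mis12 holds only CCAAT words and was not called. They lie at chr4:118437294-118437593 (minus strand), chr17:71526808-71527107 (minus), chr2:118597961-118598260 (plus), chr5:30666636-30666935 (plus), chr1:169531415-169531714 (minus) and chr11:71019361-71019660 (plus).
Cdc20: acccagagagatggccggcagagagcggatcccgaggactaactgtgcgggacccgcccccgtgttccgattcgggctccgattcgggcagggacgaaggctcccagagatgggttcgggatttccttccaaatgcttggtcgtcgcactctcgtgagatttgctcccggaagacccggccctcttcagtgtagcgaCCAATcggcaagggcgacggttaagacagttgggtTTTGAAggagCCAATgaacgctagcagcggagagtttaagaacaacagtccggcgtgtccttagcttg
Ndc80: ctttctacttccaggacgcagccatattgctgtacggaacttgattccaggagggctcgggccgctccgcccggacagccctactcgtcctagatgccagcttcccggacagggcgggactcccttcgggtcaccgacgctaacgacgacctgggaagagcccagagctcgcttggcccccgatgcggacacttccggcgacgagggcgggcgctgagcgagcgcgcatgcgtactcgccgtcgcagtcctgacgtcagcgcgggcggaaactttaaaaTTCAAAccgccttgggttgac
Bub1b: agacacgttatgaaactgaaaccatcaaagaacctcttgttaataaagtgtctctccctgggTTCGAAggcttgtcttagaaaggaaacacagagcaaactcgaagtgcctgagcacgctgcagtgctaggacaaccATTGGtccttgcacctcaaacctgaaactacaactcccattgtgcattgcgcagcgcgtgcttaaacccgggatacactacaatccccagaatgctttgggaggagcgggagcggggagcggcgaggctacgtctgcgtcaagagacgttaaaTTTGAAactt
Cenpa: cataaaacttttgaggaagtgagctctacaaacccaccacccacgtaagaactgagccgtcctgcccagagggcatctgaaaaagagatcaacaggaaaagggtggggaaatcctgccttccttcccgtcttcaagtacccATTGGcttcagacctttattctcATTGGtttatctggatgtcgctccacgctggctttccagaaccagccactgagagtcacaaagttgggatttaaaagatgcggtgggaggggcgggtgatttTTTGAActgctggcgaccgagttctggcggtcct
Nuf2: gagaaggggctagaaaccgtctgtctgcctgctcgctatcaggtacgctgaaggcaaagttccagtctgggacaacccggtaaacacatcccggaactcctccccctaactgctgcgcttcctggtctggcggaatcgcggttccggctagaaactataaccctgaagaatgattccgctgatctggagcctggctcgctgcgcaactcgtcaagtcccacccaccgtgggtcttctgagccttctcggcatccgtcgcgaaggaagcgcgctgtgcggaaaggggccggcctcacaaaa
Mis12: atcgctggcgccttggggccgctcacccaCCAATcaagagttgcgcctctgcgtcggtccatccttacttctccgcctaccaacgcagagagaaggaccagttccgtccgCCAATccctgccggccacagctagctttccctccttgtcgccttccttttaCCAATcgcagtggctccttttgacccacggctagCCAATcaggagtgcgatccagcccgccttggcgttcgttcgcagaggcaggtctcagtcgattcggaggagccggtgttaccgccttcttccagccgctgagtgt
In Cdc20 the CHR word begins 18 bases before the start, between CCAAT words that begin 53 and 8 bases before it. In Ndc80 the word is on the reverse strand and begins 30 bases into the transcript, in Cenpa 17 and in Bub1b 41. All 20 genes with a CHR word were called lower, and 12 of the 17 without it, in a list where 87.5% were called. The calls of all tested genes were not split by this word, and a link between word and call was not tested. The medians were close, -1.79 with and -1.70 without the word, and the ranges overlapped (-5.14 to -0.55 and -4.00 to 0.04). Bub3 and Cenpw hold both CHR and CCAAT and had small changes, -0.55 and -0.58 on the log2 scale.

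**Figure D3:**
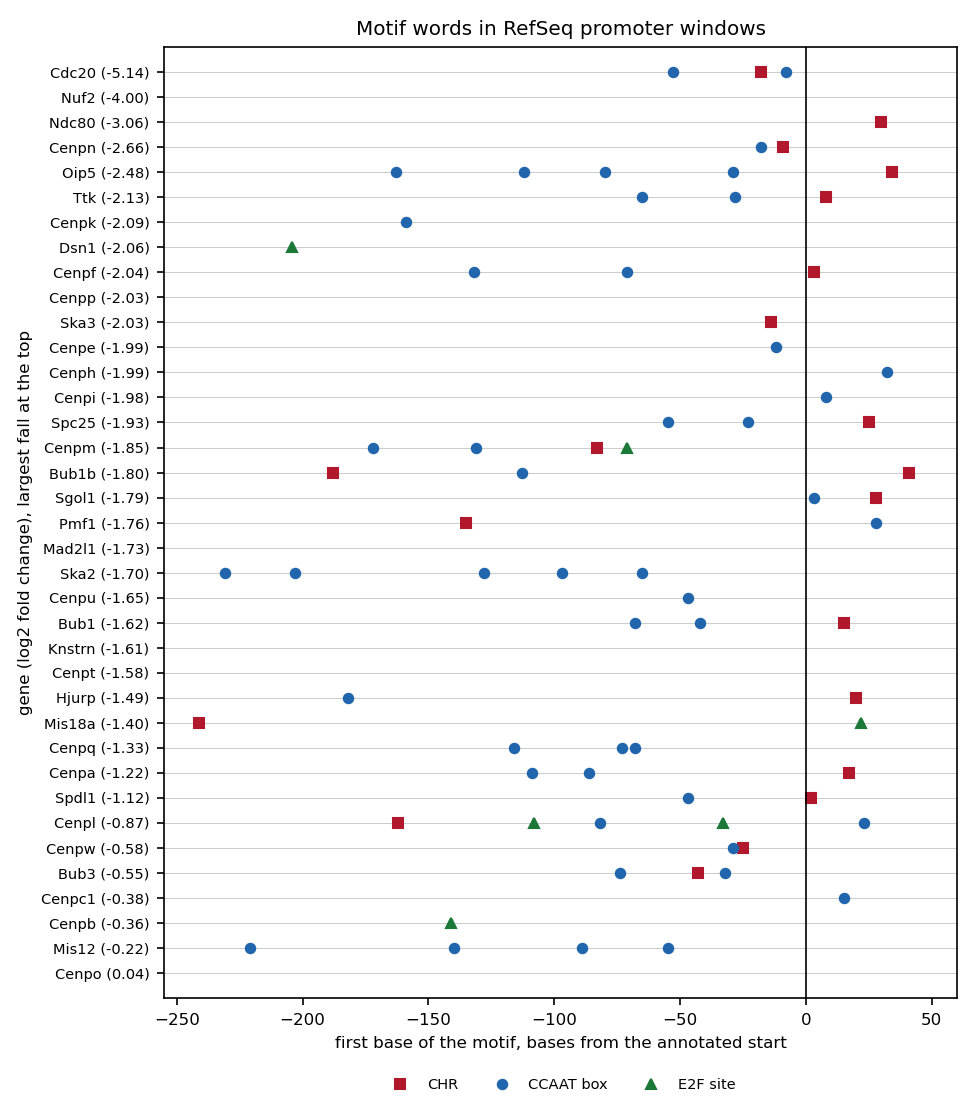
Position of each CHR, CCAAT and E2F word (x axis, bases from the annotated start) in the promoter windows of 37 members (y axis, ordered by log2 fold change, largest fall at the top). A CHR word began within 50 bases of the start in 16 genes. The 4 genes at the bottom (Cenpc1, Cenpb, Mis12 and Cenpo) hold none, as do several with larger falls, among them Nuf2, Cenpk and Dsn1.

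Centromeric chromatin genes fell to different degrees. Cenpa, the histone H3 variant that marks the active centromere (chr5:30666777-30674830, plus strand, GENCODE M21 on GRCm38, the assembly mm10 names), had 75.5, 63.8 and 70.7 CPM in control and 25.8, 33.4 and 30.8 CPM in itaconate libraries. The groups were well apart, with a log2 fold change of -1.22 ± 0.16 (SE, edgeR adjusted p = 1.87e-08), which is 2.33-fold lower. Cenpb, which binds a short DNA box in centromeric satellite repeats, went from 103.2 ± 8.63 to 80.3 ± 7.18 CPM (SD, n = 3), a log2 fold change of -0.36 ± 0.12 (edgeR adjusted p = 0.0227). That call was lost without control replicate 2 (edgeR adjusted p = 0.149), itaconate replicate 1 (0.124) or itaconate replicate 2 (0.0519), over a range of 0.00824 to 0.149 in 12 alternatives.

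The genes that load CENP-A all fell, against 11.2% of all genes. Hjurp, the chaperone that carries new CENP-A to the centromere (chr1:88262471-88277633, minus strand), had 74.5, 60.4 and 70.5 CPM in control and 24.3, 24.9 and 23.8 CPM in itaconate libraries. Its itaconate libraries were nearly equal and all far below the control libraries (-1.49 ± 0.16 on the log2 scale, edgeR adjusted p = 1.98e-10). Mis18a and Oip5 encode the alpha and beta subunits of the MIS18 complex, which prepares the centromere for loading. Mis18a had a log2 fold change of -1.40 ± 0.27, and Oip5 one of -2.48 ± 0.58, from 10.4 ± 4.30 to 1.87 ± 1.66 CPM (SD, n = 3). Oip5 had 0 counts in itaconate replicate 3, and its log2 fold change was -1.88 without that library and -3.10 without itaconate replicate 2. DESeq2 did not call it (adjusted p = 0.154). The exons of Oip5 overlap 172 bases of Nusap1 on the opposite strand, a mitotic spindle gene that itself fell by 2.59 ± 0.19. That overlap lies outside the last 500 bases of the merged exons of Oip5.

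The constitutive inner kinetochore (CCAN) is the layer that stays on centromeric chromatin through the cell cycle. Of its 13 genes in the list, 9 fell (69.2%, against 11.2% of all genes) and 4 were not called, and the median log2 fold change was -1.65. Its summed level was 262, 207 and 249 CPM in control and 104, 107 and 119 CPM in itaconate libraries. All 4 genes of the CENP-H, -I, -K and -M subcomplex fell, between -2.09 (Cenpk) and -1.85 (Cenpm). Cenph had 34.3, 15.9 and 34.0 CPM in control and 4.71, 6.91 and 9.44 CPM in itaconate libraries. Control replicate 2 was the lowest control library and still above every itaconate library (-1.99 ± 0.29 on the log2 scale, edgeR adjusted p = 4.94e-07).

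Of the CENP-L and -N pair, which contacts the CENP-A nucleosome through CENP-N, Cenpn fell by 2.66 ± 0.60 and Cenpl by 0.87 ± 0.24 on the log2 scale. Cenpn had 0 counts in itaconate replicate 1. DESeq2 did not keep its call (adjusted p = 0.138), nor did the fit without itaconate replicate 3 (edgeR adjusted p = 0.100), and its log2 fold change was -3.55 without itaconate replicate 2. The call of Cenpl was lost without itaconate replicate 1 (edgeR adjusted p = 0.0502). Over the 12 alternatives the adjusted p ran from 4.79e-10 to 0.138 for Cenpn and from 0.00161 to 0.0502 for Cenpl.

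The histone-fold pair CENP-T and CENP-W links the inner layer to the outer one. Cenpw went from 65.3 ± 10.5 to 43.7 ± 4.37 CPM (SD, n = 3), a log2 fold change of -0.58 ± 0.15, and its call was lost without control replicate 1 (edgeR adjusted p = 0.0656, range 0.00156 to 0.0656). Cenpt fell by 1.58 ± 0.57 at low counts (edgeR adjusted p = 0.0403), a call that held in 4 of 11 alternatives, with adjusted p from 0.0229 to 0.160. It was lost with no filter (0.0545), without any control replicate (0.0649, 0.160 and 0.103) and without itaconate replicate 1 (0.123) or 2 (0.122).

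Of the CENP-O, -P, -Q and -U subcomplex only Cenpp was called, but the 95% intervals of Cenpp (-2.84 to -1.21), Cenpu (-2.95 to -0.34) and Cenpq (-2.39 to -0.27) overlap widely. Cenpp fell by 2.03 ± 0.40, but 64.4% of its last 500 exonic bases overlap exons of Ippk or Aspn on the opposite strand, and Ippk had 0.19 ± 0.43. Cenpu had 5.69, 5.20 and 2.43 CPM in control and 1.69, 1.49 and 1.05 CPM in itaconate libraries. The groups did not overlap, yet the gene was not called by edgeR (-1.65 ± 0.65, adjusted p = 0.0614). Of 11 alternatives only DESeq2 called it (adjusted p = 0.0468), and the edgeR adjusted p rose to 0.236 without control replicate 1. Its exons overlap Primpol by 1069 bases on the opposite strand, and Primpol had -0.10 ± 0.33. Cenpq had 6.86, 4.55 and 18.1 CPM in control and 4.14, 0.934 and 6.47 CPM in itaconate libraries. The groups overlapped, control replicate 3 being far above the others, and the log2 fold change was -1.33 ± 0.52 (edgeR adjusted p = 0.0647). It was called without itaconate replicate 3 (0.0114), control replicate 1 (0.0478) or control replicate 2 (0.0234), and with no filter (0.0166), with log2 fold changes from -1.93 to -0.56 over 12 alternatives.

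Cenpo had 4.85, 3.41 and 3.17 CPM in control and 3.20, 2.80 and 5.77 CPM in itaconate libraries. The groups overlapped, and the log2 fold change of 0.04 had a 95% interval from -1.06 to 1.15 (edgeR adjusted p = 0.969). At these low counts a change of about 1 in either direction lies within that interval. Of its exonic bases 22.5% overlap exons of Adcy3 or Ptrhd1 on the opposite strand. Cenpc1, which encodes CENP-C, the protein that bridges CENP-A chromatin and the outer kinetochore, had 16.6, 22.7 and 23.7 CPM in control and 16.2, 12.3 and 19.9 CPM in itaconate libraries. The groups overlapped (-0.38 ± 0.24, 95% interval -0.87 to 0.12, edgeR adjusted p = 0.300), and the lower end of that interval is short of the falls of the CENP-H, -I, -K and -M genes.

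The next 3 falls in size after Cdc20 were in the NDC80 complex, the rod of 4 proteins that grips the microtubule. All 4 genes fell, against 11.2% of all genes, with a median log2 fold change of -3.53. Spc24 (chr9:21755442-21760303, minus strand) had 30.1, 26.2 and 25.2 CPM in control and 1.32, 1.87 and 0.525 CPM in itaconate libraries, or 7, 10 and 3 counts. The last value is at the floor, and the groups were more than 10 CPM apart (-4.45 ± 0.36 on the log2 scale, 21.8-fold lower, edgeR adjusted p = 2.65e-14). Spc24 and Spc25 form the end of the rod that faces the chromosome.

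Nuf2 (chr1:169497934-169531464, minus strand) had 23.4, 19.7 and 20.0 CPM in control and 3.20, 0.561 and 0.175 CPM in itaconate libraries. Itaconate replicates 2 and 3 held 3 counts and 1 count, and replicate 1 held 17. The log2 fold change was -4.00 ± 0.46 (edgeR adjusted p = 1.91e-08), and -5.78 ± 0.53 without itaconate replicate 1. Its partner Ndc80, with which it forms the microtubule-binding head (chr17:71496100-71526857, minus strand), had 28.3, 17.4 and 16.8 CPM in control and 1.88, 1.49 and 4.02 CPM in itaconate libraries. The groups did not overlap, and the log2 fold change of Ndc80 was -3.06 ± 0.37 (edgeR adjusted p = 2.82e-09). Spc25 had 55.6, 45.0 and 36.0 CPM in control and 6.78, 15.3 and 13.6 CPM in itaconate libraries. It fell by 1.93 ± 0.23 (edgeR adjusted p = 3.54e-09), and its 95% interval of -2.39 to -1.47 lies above that of Spc24, -5.18 to -3.72, a difference that was not tested.

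**Figure D4:**
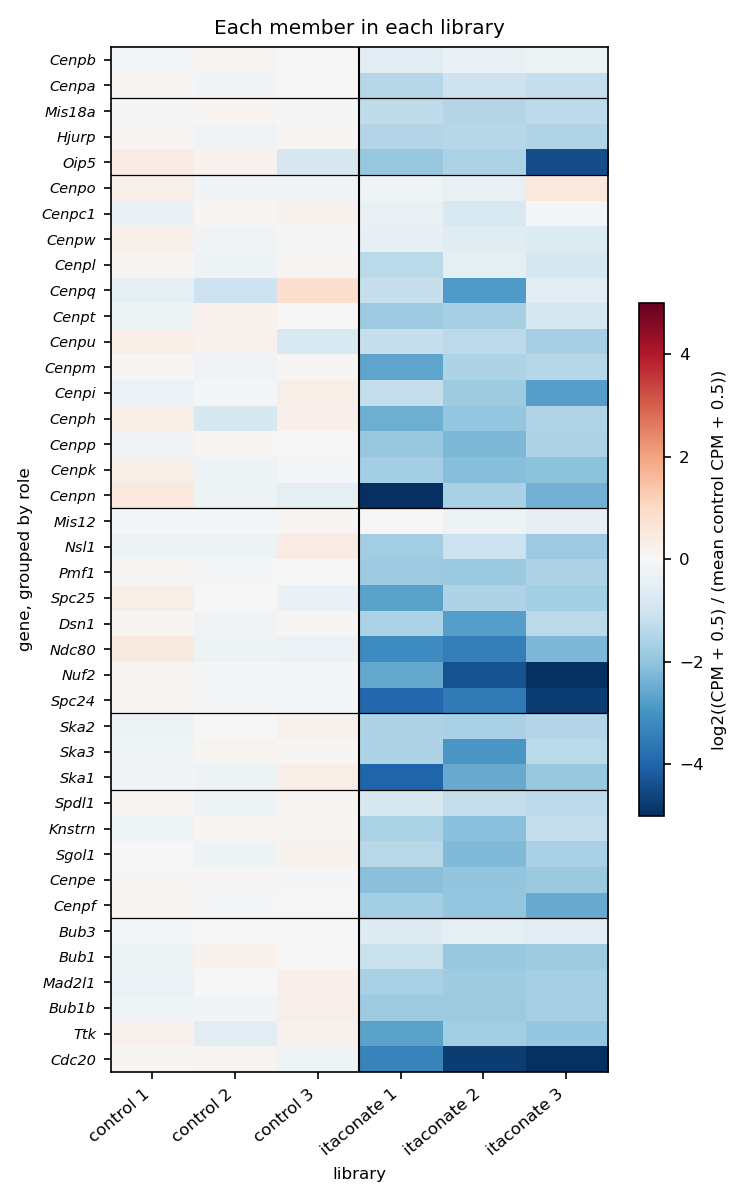
Each member (rows, grouped by role) in each library (columns), coloured by the log2 ratio of its CPM plus 0.5 to its mean control CPM plus 0.5, with colours capped at 5 in either direction. Spc24 and Cdc20 are dark in all 3 itaconate columns, Nuf2 is paler in itaconate 1 than in the other two, Oip5 and Cenpn are darkest in the single itaconate library with 0 counts, and Mis12, Cenpc1 and Cenpo stay pale.

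The MIS12 complex joins the inner kinetochore to NDC80, and 3 of its 4 genes fell, against 11.2% of all genes. Pmf1 had 81.5, 75.4 and 80.8 CPM in control and 21.8, 21.3 and 27.1 CPM in itaconate libraries. Replicates were tight in both groups, and the log2 fold change was -1.76 ± 0.16 (edgeR adjusted p = 6.36e-13). Dsn1 had a log2 fold change of -2.06 ± 0.58 and Nsl1 one of -1.70 ± 0.54, both at under 10 CPM; the call of Nsl1 was lost without control replicate 3 (edgeR adjusted p = 0.138, range 0.00628 to 0.138). Mis12 itself had 18.9, 18.7 and 20.9 CPM in control and 19.6, 16.3 and 14.5 CPM in itaconate libraries. The groups overlapped, and it was not called in the fit or in any of 12 alternatives (-0.22 ± 0.24, edgeR adjusted p = 0.585). Its 95% interval of -0.70 to 0.26 does not reach that of Pmf1, -2.07 to -1.44; the difference between these genes was not tested. The exons of Mis12 overlap 231 bases of Derl2 on the opposite strand, outside the last 500 bases of its merged exons. Among the 50-base words from the ends of its single transcripts, 3.96% also occur in Derl2.

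The SKA complex, which keeps NDC80 bound to shrinking microtubules, had all 3 genes lower, against 11.2% of all genes. Ska1 had 20.3, 18.7 and 28.7 CPM in control and 0.942, 3.55 and 5.77 CPM in itaconate libraries. The itaconate libraries were spread but all far below control (-2.70 ± 0.36, edgeR adjusted p = 1.68e-07; -3.31 without itaconate replicate 3). Ska3 had a log2 fold change of -2.03 ± 0.55 and Ska2 one of -1.70 ± 0.46. Of the last 500 exonic bases of Ska3, 15.6% overlap exons of Sap18 on the opposite strand.

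Genes of the fibrous corona and of cohesion protection were all lower, against 11.2% of all genes. Cenpe, a kinesin that carries chromosomes to the spindle equator (chr3:135212537-135273611, plus strand), had 103.5, 105.3 and 93.3 CPM in control and 23.2, 25.2 and 27.6 CPM in itaconate libraries. Cenpf, a large corona protein that binds dynein regulators (chr1:189640606-189688086, minus strand), had 144.6, 127.7 and 132.9 CPM in control and 40.9, 34.8 and 23.3 CPM in itaconate libraries. The groups were far apart for both, and they fell by similar amounts: -1.99 ± 0.15 for Cenpe (edgeR adjusted p = 6.49e-16) and -2.04 ± 0.14 for Cenpf (edgeR adjusted p = 8.09e-16). These were the smallest p-values of the list.

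Knstrn encodes SKAP, a microtubule-binding protein of the spindle and kinetochore. It had 47.5, 59.1 and 57.3 CPM in control and 17.7, 12.3 and 23.4 CPM in itaconate libraries, without overlap (-1.61 ± 0.19, edgeR adjusted p = 3.95e-09). Sgol1, or shugoshin, which shields centromeric cohesin until anaphase, fell by 1.79 ± 0.34. Spdl1, the dynein adaptor Spindly, fell by 1.12 ± 0.30.

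All 6 spindle checkpoint genes were lower, against 11.2% of all genes, by very different amounts. Cdc20, which the checkpoint holds back and which then activates the APC/C (chr4:118432901-118437352, minus strand), had 18.9, 19.7 and 15.7 CPM in control and 1.32, 0.187 and 0 CPM in itaconate libraries. These are 7, 1 and 0 counts, so 2 of the 3 itaconate libraries were under the floor. The log2 fold change was -5.14 ± 0.52 (edgeR adjusted p = 2.87e-11), and -7.33 without itaconate replicate 1 or -4.55 without itaconate replicate 3, so its size is loosely set. In its last 500 exonic bases Cdc20 shares 53 with exons of Elovl1 on the opposite strand, and Elovl1 went from 129.4 ± 16.9 to 128.9 ± 7.53 CPM (SD, n = 3; log2 fold change -0.01 ± 0.11).

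Mad2l1, the MAD2 protein that binds CDC20, had 24.8, 30.4 and 36.0 CPM in control and 9.60, 8.60 and 9.27 CPM in itaconate libraries. The itaconate libraries were nearly equal (-1.73 ± 0.24, edgeR adjusted p = 1.40e-07). Bub1b, or BUBR1, which joins MAD2 and CDC20 in the mitotic checkpoint complex (chr2:118598211-118641591, plus strand), had 39.8, 42.7 and 58.2 CPM in control and 12.8, 13.1 and 14.5 CPM in itaconate libraries. The groups did not overlap (-1.80 ± 0.20, edgeR adjusted p = 5.59e-10).

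Ttk, the kinase MPS1 that starts checkpoint signalling, had 34.3, 20.1 and 34.0 CPM in control and 4.14, 8.60 and 7.34 CPM in itaconate libraries. Its lowest control library was still above the highest itaconate library (-2.13 ± 0.28, edgeR adjusted p = 2.59e-08). Bub1, the kinase that recruits the other checkpoint proteins, fell by 1.62 ± 0.26. Bub3, the adaptor that brings BUB1 and BUBR1 to the kinetochore, went from 156.8 ± 4.57 to 106.8 ± 7.11 CPM (SD, n = 3). Its fall was small but larger than the replicate spread (-0.55 ± 0.10, edgeR adjusted p = 4.98e-05), and its 95% interval of -0.76 to -0.34 does not overlap those of Bub1 (-2.14 to -1.09) or Bub1b (-2.20 to -1.39), though the differences between genes were not tested.

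**Figure D5:**
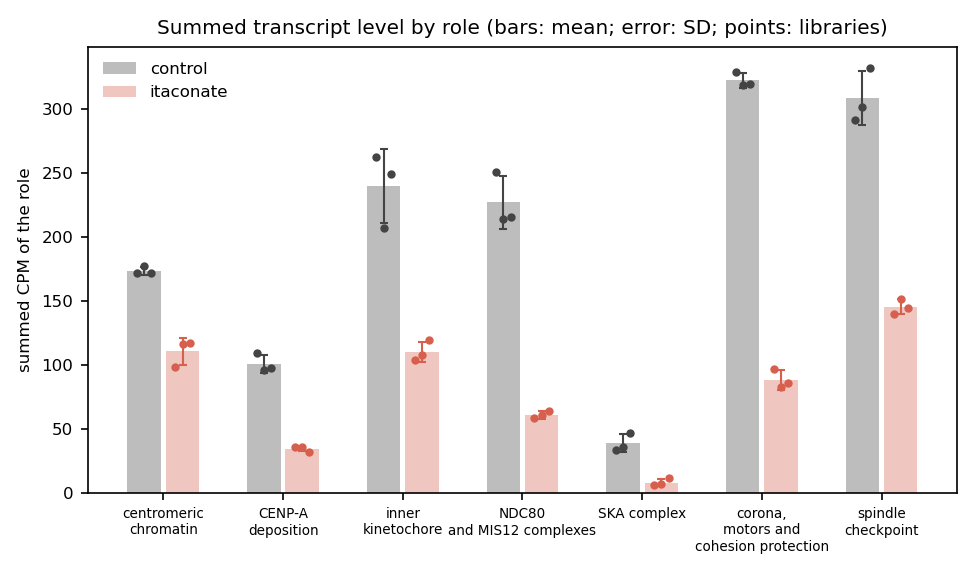
Summed CPM of the members of each role (y axis), with bars for the mean of 3 libraries, error bars for the SD and points for libraries, control in grey and itaconate in red. The itaconate mean was 20.3% of control for the SKA complex, 26.8% for NDC80 and MIS12 together and 27.3% for the corona and cohesion group, against 63.7% for centromeric chromatin; each role's libraries were lower in the itaconate group without overlap.

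By position, 7 of the 40 genes lie on chromosome 2, among them Bub1b, Knstrn (118814003 to 118853957) and Oip5 (119609512 to 119618469), and 5 on chromosome 1. Exons of 13 members overlap another gene, 12 of them on the opposite strand. The overlap reaches the last 500 bases of the merged exons in 5, namely Cenpb, Cenpp, Cenpt, Ska3 and Cdc20. Single transcripts can end elsewhere, and 3′ reads can fall at those ends too. Of the 50-base words in the last 500 bases of each protein-coding transcript, 59.42% in Cenpp also occur in Ippk and 14.55% in Cenpu in Primpol. In Ska3 13.08% occur in other genes, among them Sap18 and Prdm10, and in Spc24 7.6%, among them Tmem234 and Ndufaf7. The share was 4.85% in Knstrn (Gm14091), 4.21% in Cenpc1 (Gm13477), 3.99% in Cdc20 (Gm7856 and Elovl1), 3.96% in Mis12 (Derl2) and 1.86% in Cenpo (Adcy3). Whether the counting used strand is not given in the sources used here, so reads of genes that overlap on opposite strands may not be told apart.

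The rest of the pathway was read from a list of 58 further kinetochore, passenger complex, APC/C and cohesin genes, of which 57 were tested. Here 26 were lower (45.6%, against 11.2% of all genes), 3 higher (against 10.7% of all genes, a larger share) and 28 not called, with a median log2 fold change of -0.46. The 5 genes of the chromosomal passenger complex, with the kinase Aurora B, and of its recruiting kinase haspin all fell. Birc5 (survivin) had a log2 fold change of -3.51 ± 0.17, Cdca8 (borealin) of -1.37 ± 0.16 and the scaffold gene Incenp of -0.96 ± 0.12.

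Of 22 other kinetochore genes, 11 were lower, against 11.2% of all genes, and 3 higher, against 10.7% of all genes. Whether 3 of 22 exceeds that last share was not tested. Casc5, which encodes KNL1, the platform for BUB1 and BUBR1, had -2.89 ± 0.32, the depolymerising kinesin gene Kif2c -3.23 ± 0.44 and the astrin gene Spag5 -2.43 ± 0.30. The 3 that were higher rose little. Ndel1, a dynein regulator, rose by 0.46 ± 0.13 (edgeR adjusted p = 0.00577), Stra13, which RefSeq lists as a synonym of the histone-fold gene Cenpx, by 0.33 ± 0.11 (0.0282), and Zwint, a KNL1 partner, by 0.44 ± 0.16 (0.0404). Zwint had 33.6, 36.1 and 41.0 CPM in control and 52.9, 49.5 and 48.1 CPM in itaconate libraries, without overlap. Its call was lost in 7 of 12 alternatives (adjusted p 0.0340 to 0.140), and that of Stra13 in 5 of 12 (0.0202 to 0.109), each with library totals in place of scaling factors and without several single libraries.

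Among APC/C and checkpoint-silencing genes 4 of 18 were lower (22.2%, against 11.2% of all genes) and 14 not called, with a median of -0.17. The APC/C's own ubiquitin-conjugating enzyme gene Ube2c had -3.22 ± 0.17, the subunit gene Anapc5 -0.87 ± 0.11 and the alternative activator gene Fzr1 -1.02 ± 0.19. In the securin, separase and cohesin genes 6 of 12 were lower, against 11.2% of all genes. Pttg1, the separase inhibitor securin, had -2.69 ± 0.18, and the cohesin ring genes Smc1a and Rad21 had -0.67 ± 0.09 and -0.74 ± 0.11.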

How the data were processed

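The authors deposited raw read counts per gene symbol for 6 QuantSeq 3′ libraries, prepared from TRIzol-extracted RNA per the labels' protocols. STAR 2.7.5a, HTSeq 0.6.1, build mm10 and edgeR are listed in the submitters' processing notes. For trimming, strand and annotation version, these were not given in the sources used here. Fields 2 to 7 of each line were taken in the order of the 6 header names. Genes passing edgeR's filterByExpr (minimum count 10, minimum total 15) were scaled by TMM and tested with edgeR 4.0.16 in R 4.3.3 (quasi-likelihood F test, robust, group as the only term, two-sided, Benjamini-Hochberg over 10636 genes). The call threshold was an adjusted p of 0.05. SE was taken as the size of the log2 fold change over the root of its F statistic, and intervals are at 95%. CPM values use TMM-scaled totals, except the CPM of the floor, which uses unscaled totals. The floor of 3 counts allows for counting error alone: without molecular identifiers, reads are not separate molecules. The script was tested on simulated counts.

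The members, the lists and the motif words were chosen with earlier results of these data known. Values in every library are given for the 16 members with the smallest p and for each member not called; of the pathway list the 3 smallest p per role and each gene called higher are named. Alternatives were 2 other scalings, 2 other filters, DESeq2 1.42.0, a replicate block and leaving out each library. Gene positions and exon overlaps come from GENCODE M21 and promoters from RefSeq, in which all 40 symbols were matched, Sgol1 as a synonym.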

Additional observations from a re-analysis of the deposited data

How the results depend on the processing

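The count of members called lower was 32 to 35 over all 12 alternatives, 35 with the replicate block, and no member was called higher in any of them. Of the 35 members called lower, 28 were called in each of the 12; Cenpb, Oip5, Cenpl, Cenpn, Cenpt, Cenpw and Nsl1 were lost in at least 1. The sign of the value of Cenpo changed, with -0.0107 with library totals, -0.000796 with the replicate block and -0.34 to 0.25 with a library left out. The count of pathway genes called lower was 24 to 30. The count called higher was 1 with library totals, where 3 were called with the TMM factors, and ran from 1 to 3 with a library left out; it was 1 when itaconate replicate 2, itaconate replicate 3 or control replicate 2 was left out. The labels give both groups the numbers 1 to 3 without saying that a number marks a shared culture. Deviations of same-numbered libraries from their group means correlated at -0.01, 0.02 and 0.04 across genes, which shows no shared deviation; whether they share a culture or day is not stated, and the block was not used in the reported fit. Within the list the block gained the call of Cenpq (edgeR adjusted p = 0.0218) and lost that of Cenpt (0.0520). Depth limits the size of the largest falls, since itaconate libraries of Cdc20, Nuf2 and Spc24 held as few as 0, 1 and 3 counts. No batch or date is named in the labels, and values within batches could not be had.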
